A study of Mus musculus with 6 samples.

Results

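Integrins are receptors made of an alpha and a beta subunit that hold a cell to other cells and to the matrix. The 10 genes described here encode subunits of the leukocyte integrins, and were taken by name from the deposited table of 54532 genes. All 10 were found, and each averaged 1 FPKM or more (fragments per kilobase of gene, scaled to library size), the level set for testing. The samples were primary macrophages of WT genotype. In 3 samples the cells were given vehicle and in 3 rmMETRNL, a treatment named for the secreted protein meteorin-like. The rmMETRNL treatment lasted 6 h and both groups then met Candida albicans for 6 h. No sample was left without the yeast, so the response to Candida itself was not measured. Whether the replicates are different animals, cultures or repeat preparations is not in the labels, so the p-values refer to variation among 6 preparations that may be technical only. The columns are named Wt and Wr. The r was read as rmMETRNL, and each direction below rests on that reading.

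Each alpha subunit pairs with 1 or a few beta subunits, and the pair reaches the cell surface as a unit. The beta 2 subunit (Itgb2) pairs with the alpha subunits of Itgam, Itgax and Itgal. These pairs bind ICAM proteins. The Itgam and Itgax pairs also bind complement-coated particles, and the Itgam pair, complement receptor 3, binds Candida as well. The beta 1 subunit (Itgb1) pairs with Itga5 as a fibronectin receptor, with Itga4 as a receptor for VCAM-1, and with Itgav. The beta 3 subunit (Itgb3) pairs with Itgav as a vitronectin receptor, and the beta 7 subunit (Itgb7) pairs with Itga4 or Itgae in lymphocytes that home to the gut. RNA levels do not measure the receptors at the surface.

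The libraries held 13235001 to 18145733 reads (or read pairs), recovered from the FPKM values. Members had between 271 reads (Itga4) and 35140 reads (Itgb2) in a library. Of 6 macrophage markers all were detected, with Lyz2 at 5460 ± 382 FPKM in the vehicle group and 5567 ± 139 FPKM in the rmMETRNL group (mean ± SD, n = 3, here and throughout), and Adgre1, which encodes F4/80, at 117 ± 5.65 and 130 ± 3.30 FPKM. Csf1r was at 95.1 ± 2.04 and 100.3 ± 2.28 FPKM, while Cd68 was at 1446 ± 48.7 and 1359 ± 28.4 FPKM. The lowest were Mertk, at 2.74 ± 0.0038 and 2.18 ± 0.462 FPKM, and Fcgr1, at 1.21 ± 0.268 and 1.35 ± 0.556 FPKM. The labels' extraction text speaks of retinas, but 5 retina markers summed to at most 0.855 FPKM in any library, and Crx was at 0. Metrnl, the cells' own gene for the protein, ranged from 139.5 to 153 FPKM over the 6 libraries. Library rmMETRNL 3 stood apart in 1 respect. Across the 9867 tested genes its deviation from the gene mean correlated with log2 gene length at 0.203. The other 5 libraries lay between -0.140 (vehicle library 3) and 0.0534 (vehicle library 1).

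The promoters of the members with the lowest p in each direction, Itgb7 (lower with rmMETRNL) and Itgav (higher), are shown because these members differed most between the groups. The sequences run 5′ to 3′ on the gene's strand, from 250 bases before to 50 bases after the start in RefSeq (GRCm38.p6), at chr15:102231886-102232185 on the minus strand for Itgb7 and chr2:83724147-83724446 on the plus strand for Itgav. Capitals mark GAGGAA, the core of sites for the myeloid factor PU.1, and GGGCGG, the GC box, read on either strand. No match to one motif overlaps a match to the other.
Itgb7: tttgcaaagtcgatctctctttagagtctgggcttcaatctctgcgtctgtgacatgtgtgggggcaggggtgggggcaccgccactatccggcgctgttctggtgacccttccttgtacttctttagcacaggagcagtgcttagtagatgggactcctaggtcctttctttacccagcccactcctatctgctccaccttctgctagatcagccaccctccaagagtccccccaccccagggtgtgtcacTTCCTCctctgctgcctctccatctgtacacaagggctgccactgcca
Itgav: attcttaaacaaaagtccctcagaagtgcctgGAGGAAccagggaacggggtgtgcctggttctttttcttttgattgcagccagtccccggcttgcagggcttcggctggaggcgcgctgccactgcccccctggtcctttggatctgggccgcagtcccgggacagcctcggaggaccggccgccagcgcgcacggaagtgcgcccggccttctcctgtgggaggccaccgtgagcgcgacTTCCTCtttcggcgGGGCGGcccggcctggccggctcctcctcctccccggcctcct

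The RefSeq table held a promoter for 7 of the 10 members (Itga4, Itga5, Itgam, Itgav, Itgax, Itgb1 and Itgb7). GAGGAA was found in 5 of the 7 and in 28.3% of 32851 promoters of the same length. GGGCGG was found in 5 of the 7 and in 35.7% of all promoters. The Itgb7 promoter has 1 match to GAGGAA and 0 to GGGCGG, while that of Itgav has 2 and 1. TGACTCA, the AP-1 site, was found in that of Itgax alone among the 7, against 5.20% of all promoters. TATAAA and CACGTG were found in 0 of the 7, against 13.6% and 7.15%. A match is a run of letters and not a measured binding site, and 7 promoters are too few to set against the shares of all promoters.

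The level of the members spanned from Itgb2, at a mean of 634 FPKM over the 6 libraries, to Itga4, at 1.60 FPKM. In order they were Itgb2, Itgb1 (175 FPKM), Itgb7 (93.95), Itgam (72.4), Itga5 (72.2), Itgav (37.3), Itgax (28.4), Itgal (6.63), Itgb3 (5.15) and Itga4. All neighbours in this order kept their places in 6 of 6 libraries except Itgam and Itga5. Those overlapped, with Itgam the higher in 3 of 6. Levels per length depend on the gene model used. The table's length for Itgav is 10744 bases and the longest coding transcript in GENCODE M21 is 7054 bases, which would put Itgav at 56.7 FPKM in place of 37.3. For Itga4, with 13978 and 9767 bases, the level would be 2.29 FPKM.

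Itgam has a further limit. Of its exon bases, 68.7% are shared on the same strand with Gm49368, an annotated readthrough gene, which had only 0 to 8 reads per library. How reads in shared exons were counted is not given in the sources used here. Other genes of the lists below also share exon bases. Ilk, the integrin-linked kinase gene, has 89.7% of its exon bases shared on the opposite strand and was at 0 to 0.372 FPKM. Icam4, with 100% shared on the opposite strand, was at 0 in every library. Vcl, the vinculin gene, with 25.5% shared on the opposite strand, had a mean of 16.1 FPKM. Spp1, with 18.8% shared on the same strand, had one of 6452 FPKM. Most exon bases of Vcl and Spp1 are unshared, so their levels cannot show how reads in shared bases were counted. If reads in shared bases were left out, Itgam would stand at 231 FPKM per unshared length in place of 72.4, above Itgb1. Whether they were left out was not tested. The same length enters both groups, so it does not change the fold change.

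**Figure D1:**
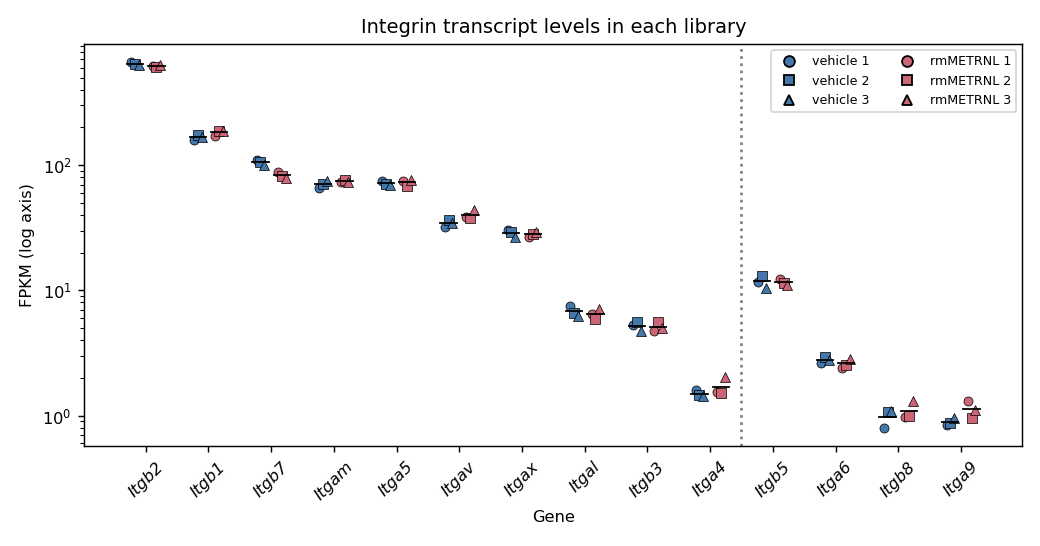
FPKM (log axis) of the 10 leukocyte integrin genes, left of the dotted line, and of the other 4 integrin subunit genes that averaged 1 FPKM or more. Each point is a library, with vehicle and rmMETRNL by colour and the replicate by shape, and the bars are group means. Itgb2 is highest at a mean of 634 FPKM and Itga4 lowest of the 10 at 1.60 FPKM.

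No member passed the test between pretreatments. Limma on log2(FPKM + 1) called 0 of the 10 at an adjusted p of 0.05 (Benjamini-Hochberg over 9867 genes), where the background was 0 of all genes tested, or 0%. The adjusted p of members ran from 0.172 (Itgb7) to 0.963 (Itgb3). At an unadjusted p under 0.05 there were 2 members, Itgb7 lower and Itgav higher, where 14.7% of all genes passed this level. In 3 members the vehicle and rmMETRNL values did not overlap, against 21.5% of all genes. Of these, Itgav lay higher with rmMETRNL, where 10.9% of all genes did so, and Itgb7 and Itgb2 lay lower, where 10.6% did. A second fit, limma voom on the recovered reads, called 1 member, Itgb7, where 0.618% of all genes were called in either direction and 0.213% lower with rmMETRNL. Fold changes were positive in 5 members and negative in 5, with a median of 0.0079 against -0.0056 over all genes tested.

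Itgb7 (ENSMUSG00000001281, chromosome 15, 102215995 to 102231944, minus strand, GRCm38) was the member that differed most. It stood at 111, 105 and 99.4 FPKM in vehicle libraries 1, 2 and 3 and at 87.8, 81.5 and 78.8 FPKM in rmMETRNL libraries 1, 2 and 3. Each rmMETRNL value lay below each vehicle value, at 83.5%, 77.4% and 74.9% of the vehicle mean. The group means of 105 ± 5.70 and 82.7 ± 4.64 FPKM gave a log2 fold change of -0.34 (SE 0.06, 95% interval -0.49 to -0.20, adjusted p = 0.172 in limma). In voom the log2 fold change was -0.36 (SE 0.06, adjusted p = 0.0203). By unadjusted p Itgb7 ranked 51 of 9867 genes. Over the other settings tried its log2 fold change ran from -0.39 to -0.31 with adjusted p-values of 0.0203 to 0.392. No exon base of Itgb7 was shared with another gene.

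Lymphocytes and mast cells are other known sources of Itgb7 RNA, and in bulk RNA fewer cells of a type and less RNA per cell cannot be told apart. Of 7 T and NK cell markers, 0 reached 1 FPKM, and their sum was 1.09 to 1.39 FPKM with vehicle and 0.949 to 1.54 with rmMETRNL. Cd3e was at 0.0631 ± 0.0129 and 0.134 ± 0.0763 FPKM, Cd3d at 0.319 ± 0.166 and 0.263 ± 0.0543, Cd3g at 0.164 ± 0.0693 and 0.175 ± 0.140, and Cd4 at 0.333 ± 0.0683 and 0.297 ± 0.0339. The 4 B cell markers summed to 4.93 to 5.96 FPKM with vehicle and 5.96 to 6.38 with rmMETRNL. The 4 mast cell markers summed to 7.67 to 12.6 and 9.40 to 11.9 FPKM. The T and NK and the mast cell sums overlapped between the groups, and the B cell sum was the higher with rmMETRNL. No marker of these lists was at 0 in every library, and their part in the level of Itgb7 was not tested.

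The partners of Itgb7 were low. Itga4 (ENSMUSG00000027009, chromosome 2, 79255426 to 79333123) stood at 1.61, 1.45 and 1.43 FPKM with vehicle and at 1.54, 1.51 and 2.05 FPKM with rmMETRNL. The groups overlapped, and rmMETRNL library 3 was the highest of the 6. The log2 fold change was 0.11 (SE 0.11, 95% interval -0.15 to 0.36), 0.02 without rmMETRNL library 3 and 0.07 with the trend in gene length removed. Of the exon bases of Itga4, 8.04% are shared with Cerkl on the opposite strand. Of its 31-base words, 13.2% occur in another gene, so part of its reads may be uncertain. Itgae was at 0.0144 to 0.195 FPKM, from 1 to 14 reads. Itgb7 RNA thus exceeded Itga4 RNA per length by 70.3-fold with vehicle and 49.2-fold with rmMETRNL. These ratios rest on the table's gene lengths. Scaled to the longest coding transcripts they would be smaller, with means over the 6 libraries of 97.0 FPKM for Itgb7 and 2.29 for Itga4.

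Itgav (ENSMUSG00000027087, chromosome 2, 83724397 to 83806916, plus strand) stood at 32.1, 36.5 and 34.7 FPKM with vehicle and at 38.3, 37.8 and 44.0 FPKM with rmMETRNL. Every rmMETRNL value lay above every vehicle value, and library rmMETRNL 3 was highest, at 128% of the vehicle mean. The log2 fold change was 0.21 (SE 0.08, 95% interval 0.03 to 0.39, adjusted p = 0.305 in limma). It was 0.14 without rmMETRNL library 3, the library with the strongest trend in gene length (0.203). It was 0.22 without vehicle library 3, where that trend was the opposite way (-0.140). With the trend in gene length removed from each library, a setting chosen after seeing the data, it was 0.18. Of its exon bases, 5.90% are shared with Gm13684 on the opposite strand, which had 25 to 83 reads per library.

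Itgb3, Itgb5 and Itgb8, known beta partners of Itgav, each overlapped between the groups. Itgb3 (ENSMUSG00000020689) stood at 5.26, 5.57 and 4.72 FPKM with vehicle and at 4.78, 5.60 and 5.00 FPKM with rmMETRNL. These ranges nearly coincided, and the log2 fold change was -0.01 (SE 0.08, 95% interval -0.20 to 0.18). Itgb5, an Itgav partner outside the 10 genes, had 11.8 ± 1.26 and 11.6 ± 0.639 FPKM. Itgb8, another, had 0.982 ± 0.163 and 1.09 ± 0.185 FPKM.

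Itgb1 (ENSMUSG00000025809, chromosome 8, 128685654 to 128733200), the partner that Itgav shares with Itga4 and Itga5, stood at 158, 173 and 169 FPKM with vehicle. With rmMETRNL it stood at 170, 188 and 189 FPKM. Library rmMETRNL 1 lay inside the vehicle range, and the other 2 above it. The log2 fold change was 0.13 (SE 0.06, 95% interval -0.01 to 0.27, adjusted p = 0.369 in limma). Itga5 (ENSMUSG00000000555, chromosome 15, 103344286 to 103366763), the alpha subunit of the main fibronectin receptor, was at 74.3, 70.2 and 70.0 FPKM with vehicle. It was at 74.4, 68.6 and 75.9 FPKM with rmMETRNL, overlapping the vehicle range. Its log2 fold change was 0.03 (SE 0.05, 95% interval -0.10 to 0.16), and it was -0.0013 without rmMETRNL library 3.

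Itgb2 (ENSMUSG00000000290, chromosome 10, 77530252 to 77565708), the shared beta subunit of the leukocyte-specific integrins, stood at 663, 644 and 632 FPKM with vehicle. It stood at 623, 613 and 630 FPKM with rmMETRNL (629.6 in library 3 against 632.3 in vehicle library 3). The groups did not overlap, by a narrow gap that closed when the libraries were rescaled to TPM, a unit in which every library has the same total. The log2 fold change was -0.06 (SE 0.04, 95% interval -0.15 to 0.04, adjusted p = 0.55 in limma). Among the 10, Itgb2 varied least between replicates, with a coefficient of variation of 2.39% with vehicle and 1.33% with rmMETRNL.

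Its alpha partners lie together on chromosome 7. Itgam (ENSMUSG00000030786, 128062640 to 128118491), which encodes CD11b, stood at 66.1, 70.9 and 74.9 FPKM with vehicle and at 72.7, 76.6 and 73.2 FPKM with rmMETRNL. The rmMETRNL values lay in or just above the upper part of the vehicle range (log2 fold change 0.07, SE 0.06, 95% interval -0.06 to 0.21). Leaving out vehicle library 1 gave 0.025, and leaving out vehicle library 3 gave 0.11. Itgax (ENSMUSG00000030789, 128129547 to 128150657), which encodes CD11c, was at 30.3, 29.1 and 26.8 FPKM with vehicle and at 26.6, 27.9 and 29.5 FPKM with rmMETRNL. These overlapped almost wholly (log2 fold change -0.04, SE 0.06, 95% interval -0.19 to 0.12). Itgal (ENSMUSG00000030830, 127296260 to 127335138), the alpha subunit of LFA-1, was at 7.45, 6.65 and 6.24 FPKM with vehicle and at 6.46, 5.87 and 7.10 FPKM with rmMETRNL. It too overlapped (log2 fold change -0.06, SE 0.09, 95% interval -0.27 to 0.15). Of the 31-base words of Itgax, 12.7% occur in another gene, and of those of Itgam 74.1%, so part of their reads may be uncertain.

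Neutrophils carry the beta 2 integrins too, and dendritic cells carry Itgax. The 8 neutrophil markers summed to 112 to 119 FPKM with vehicle and to 123 to 131 FPKM with rmMETRNL. Of this list S100a9 had 24.4 ± 0.781 and 34.8 ± 3.56 FPKM (adjusted p = 0.151 in limma), and S100a8 had 83.7 ± 4.59 and 86.1 ± 0.564 FPKM. Retnlg had 6.58 ± 1.31 and 6.49 ± 0.654 FPKM, Ly6g had 0.301 ± 0.167 and 0.279 ± 0.147 FPKM, and Elane was at 0 in every library. The 5 dendritic cell markers summed to 28.3 to 30.95 and 28.0 to 30.5 FPKM, nearly all of it Ccr7. Their part in the levels of Itgb2, Itgam and Itgax was not tested.

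**Figure D2:**
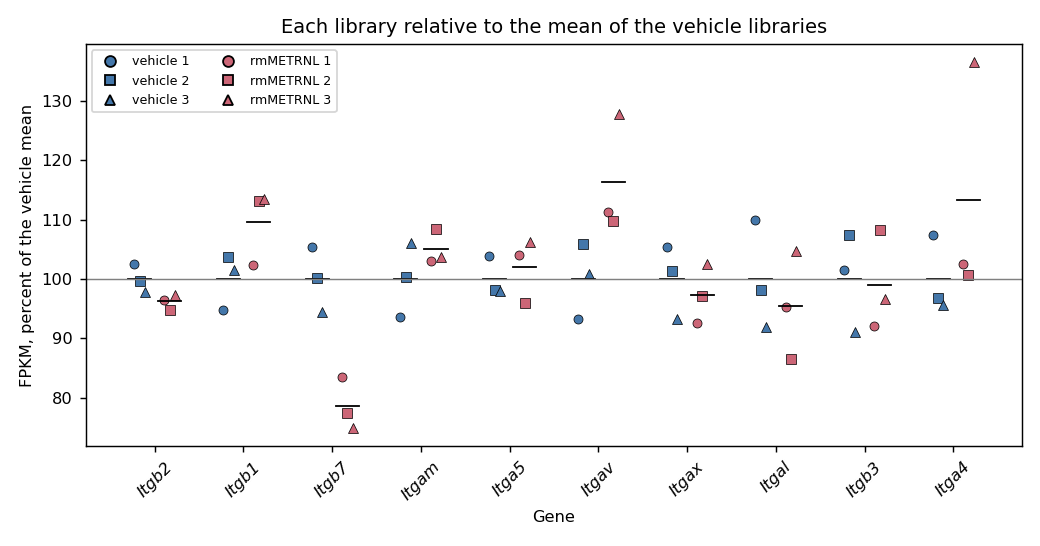
FPKM of each member in each library as a percent of the mean of the 3 vehicle libraries, with bars at the group means. The 3 rmMETRNL values of Itgb7 sit between 74.9% and 83.5%, below all vehicle values, while Itgav and Itga4 reach 128% and 137% in rmMETRNL library 3.

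The sum of the 10 genes was 1137 ± 15.2 FPKM with vehicle and 1116 ± 15.8 FPKM with rmMETRNL. Itgb2 made up 56.9% ± 0.748 and 55.7% ± 0.517 of it. Itgb1 made up 14.6% ± 0.797 and 16.4% ± 0.852. Itgb7 made up 9.25% ± 0.385 and 7.42% ± 0.498. For Itgb7 all 3 rmMETRNL shares, 7.94%, 7.36% and 6.95%, lay below the lowest vehicle share of 8.88%. These are shares of transcripts per length, and they move with each other since they sum to a fixed total. All 3 shares would be lower if reads in the shared exon bases of Itgam were left out of its level.

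Beta subunit RNA exceeded the RNA of the alpha partners in most of the 9 pairs compared. Itgam, Itgax and Itgal together reached 16.4% ± 0.712 of the level of Itgb2 with vehicle and 17.5% ± 0.518 with rmMETRNL. Most of that sum was Itgam, so these percentages would be higher if reads in its shared exon bases were left out. Itgb2 was 9.16-fold above Itgam with vehicle and 8.39-fold with rmMETRNL, or 2.87-fold with vehicle (a log2 ratio of -1.52 in place of -3.20) when Itgam is scaled to its unshared bases. Itgb2 was 22.5-fold and 22.2-fold above Itgax, and 95.6-fold and 96.3-fold above Itgal. Itgb1 was 2.33-fold and 2.50-fold above Itga5, and 4.84-fold and 4.56-fold above Itgav. The exceptions were Itgav pairs. In these the alpha RNA exceeded that of Itgb3 by 6.66-fold and 7.81-fold and that of Itgb5 by 2.93-fold and 3.45-fold. Scaled to the longest coding transcripts, Itgav would be nearer to Itgb1 and further above Itgb3. The means would be 56.7 FPKM for Itgav, 187 for Itgb1 and 5.26 for Itgb3.

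The log2 ratio of alpha to beta RNA was compared between pretreatments for the 9 pairs with an exact two-sided permutation test over the 6 libraries, which cannot go below p = 0.1. The largest difference was for Itga4 to Itgb7. It includes the lower level of Itgb7 with rmMETRNL given above, so it is not a separate result. That ratio was -6.13 ± 0.0418 with vehicle and -5.62 ± 0.308 with rmMETRNL, higher in 3 of 3 rmMETRNL libraries, a difference of 0.51 (exact permutation p = 0.1, adjusted p = 0.60 over the 9 pairs). Without rmMETRNL library 3 the difference was 0.34. Next were Itgav to Itgb5, with a difference of 0.24 (exact p = 0.3), and Itgav to Itgb3, with 0.23 (exact p = 0.2). Without rmMETRNL library 3 these were 0.13 and 0.14. For the remaining 6 pairs the differences lay between -0.10 and 0.13 (-0.17 to 0.19 with a library left out), with adjusted exact permutation p-values of 0.60 to 1.

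**Figure D3:**
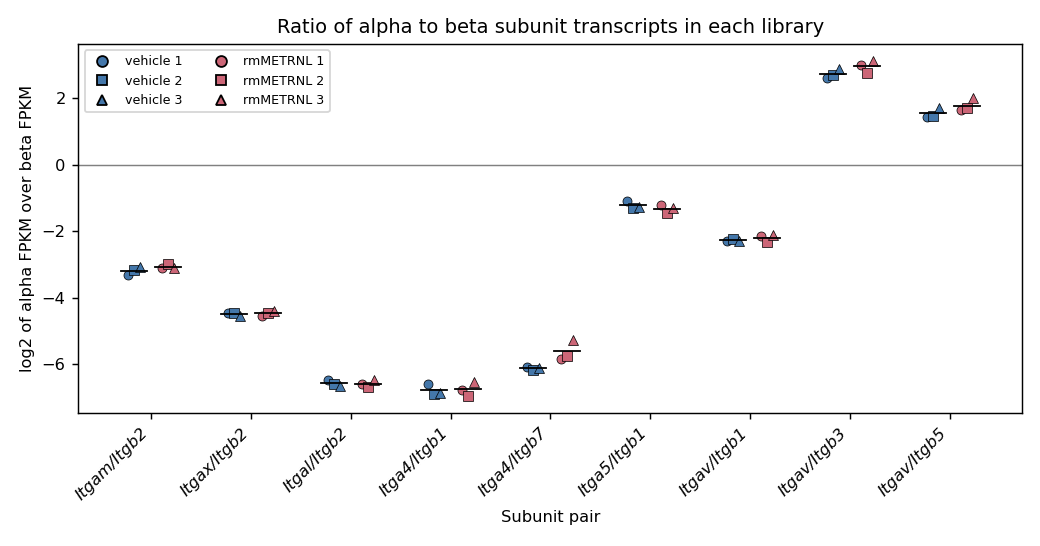
Log2 of the alpha subunit's FPKM over the beta subunit's FPKM for 9 known pairs, 1 point per library, with bars at the group means. Points above 0 mean more alpha than beta RNA per length. The Itga4 to Itgb7 ratio is -6.13 with vehicle and -5.62 with rmMETRNL, and the Itgav ratios to Itgb3 and Itgb5 lie above 0.

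Among 17 other genes listed as integrin subunits, Itgb5 was the highest, above the members Itgal, Itgb3 and Itga4. In 13 of the 17 the mean was under 1 FPKM, among them Itgad (0 to 2 reads), the remaining alpha partner of Itgb2, and Itgbl1, an integrin beta-like gene rather than a subunit, had 0 reads in every library. The 4 tested were Itgb5, Itga6 (2.78 ± 0.143 and 2.61 ± 0.223 FPKM), a laminin receptor subunit, Itga9 (0.893 ± 0.0634 and 1.12 ± 0.168 FPKM) and Itgb8. None of the 4 passed limma (lowest adjusted p = 0.526) or voom, 0 had an unadjusted p under 0.05, and their groups all overlapped.

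Integrins bind ligand after talin and kindlin attach to the beta subunit tail, and they signal through Src kinases and adaptor proteins. Of 43 genes for these steps 33 were tested, 19 with a positive and 14 with a negative fold change, and a median of 0.0022 against -0.0056 over all genes. Limma and voom called 0 of the 33, and an unadjusted p under 0.05 was found in 9, of which 6 were higher and 3 lower, against 14.7% of all genes tested. Groups did not overlap in 11, of which 6 lay higher and 5 lower, against 21.5% of all genes. Fermt3, which encodes kindlin-3, the leukocyte kindlin, had 99.8, 90.6 and 89.3 FPKM with vehicle and 85.9, 79.0 and 79.4 FPKM with rmMETRNL. All rmMETRNL values lay below those of vehicle (log2 fold change -0.19, SE 0.06, adjusted p = 0.269 in limma). Zyx, the gene of the adhesion protein zyxin, had 56.3, 42.2 and 45.9 FPKM and then 40.6, 37.9 and 39.5 FPKM. Limma gave it a value of -0.27 on the log2 scale (SE 0.10, adjusted p = 0.314), which was -0.16 without vehicle library 1, the highest of the 6.

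Vav1 and Crk, which encode signalling proteins downstream of integrins, went the other way. Vav1 had 60.2 ± 1.02 and 66.1 ± 1.41 FPKM (log2 fold change 0.13, SE 0.04, adjusted p = 0.261 in limma), and Crk had 30.9, 31.1 and 30.3 FPKM with vehicle and 32.8, 35.2 and 34.5 FPKM with rmMETRNL (0.15, SE 0.05, adjusted p = 0.268 in limma). In both genes the rmMETRNL values lay wholly above those of vehicle. The most abundant genes of the list were Cd9, a tetraspanin that associates with integrins, at 484 ± 26.9 and 519 ± 10.1 FPKM, and Slc3a2, which encodes the CD98 heavy chain that binds beta subunit tails, at 478 ± 8.27 and 460 ± 25.1 FPKM. Talin itself, Tln1, was at 76.1 ± 6.29 and 74.4 ± 4.50 FPKM.

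Of 25 integrin ligand genes 13 were tested, 3 with a positive and 10 with a negative fold change and a median of -0.09. Over all genes tested, 4771 fold changes were positive and 5096 negative, with a median of -0.0056. Limma and voom called 0 of the 13. At an unadjusted p under 0.05 there were 2 higher and 3 lower, against 14.7% of all genes tested in either direction. Groups did not overlap in 6, of which 2 lay higher and 4 lower, against 21.5% of all genes. Icam1, a ligand of the beta 2 integrins, had 26.2, 25.4 and 24.0 FPKM with vehicle and 28.5, 30.6 and 27.4 FPKM with rmMETRNL. F11r, which encodes the junction protein JAM-A, a ligand of LFA-1, had 5.18 ± 0.137 and 6.03 ± 0.166 FPKM. In both genes the rmMETRNL values lay wholly above those of vehicle, with log2 fold changes of 0.19 (SE 0.06 and 0.05, adjusted p = 0.273 and 0.244 in limma). Icam1 shares 11.7% of its exon bases with Gm47079 on the opposite strand.

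The other tested ligands named here had negative fold changes, as 10 of the 13 tested ligand genes did. Thbs1, the thrombospondin gene, had 148, 154 and 140.3 FPKM with vehicle and 118, 117 and 139.8 FPKM with rmMETRNL, where library 3 came near the vehicle range. Its log2 fold change was -0.24 (SE 0.08, adjusted p = 0.276 in limma) and -0.32 without rmMETRNL library 3. Tgfb1, whose latent protein Itgav integrins bind, had 115 ± 9.98 and 98.97 ± 5.00 FPKM (log2 fold change -0.21, SE 0.07, adjusted p = 0.293 in limma). The most abundant ligand genes were Spp1 and Fn1. Spp1, which encodes osteopontin, had 6608 ± 261 and 6295 ± 196 FPKM. Fn1, which encodes fibronectin, had 207 ± 17.3 and 205 ± 28.4 FPKM. Both overlapped between the groups. The log2 fold change of Fn1, -0.02, turned positive without vehicle library 1, vehicle library 2 or rmMETRNL library 2. Vtn, Fga, Fgb and Fgg, the vitronectin and fibrinogen genes, had 0 reads in every library, as did Icam4.

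**Figure D4:**
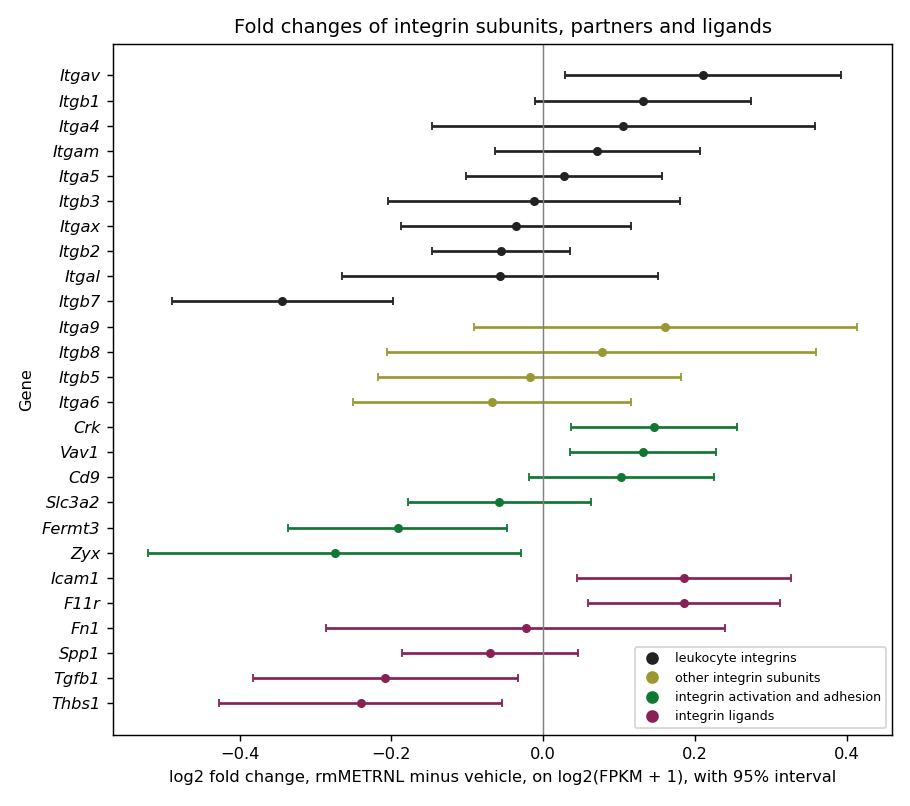
Log2 fold change (rmMETRNL minus vehicle) on log2(FPKM + 1) with its 95% interval from limma, for the 10 leukocyte integrins, the other tested subunits and the named activation genes and ligands. Itgb7 lies lowest at -0.34 and Itgav highest among the 10 at 0.21, and 0 of the genes shown passed the adjusted test.

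Genes whose profile over the 6 libraries was among the closest to that of Itgb2, by the root mean square difference of log2(FPKM + 1) deviations from each gene's own mean, were Cat (0.0136) and Zfr (0.0153). Each was highest in vehicle library 1 and lowest in rmMETRNL library 2, as Itgb2 was. Cat, the catalase gene, ranged from 48.3 to 51.1 FPKM. With 6 libraries and small differences such likeness describes these samples only.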

How the data were processed

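RNA was sequenced from 6 macrophage samples, 3 vehicle and 3 rmMETRNL. The authors deposited FPKM values per gene beside a gene length column. GRCm38 and mm10 are named in the submitters' processing notes, while aligner, counter, annotation and strand setting were not given in the sources used here. Value times length gave whole reads in each library for 100% of values, within 0.05 reads. At 1 kb, 10 reads correspond to 0.549 to 0.748 FPKM.

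The 9867 genes averaging 1 FPKM or more went into a two-sided limma test (limma 3.58.1, R 4.3.3) of log2(FPKM + 1). The variance followed a trend in mean level, and p-values were adjusted by Benjamini-Hochberg (threshold 0.05). Fold changes are on that scale, which understates low genes. Voom ran on the recovered reads. Named are the 10 members, the tested other subunits, of each list the 4 genes with the smallest p and the 2 most abundant, the 3 genes most like Itgb2, cell type markers and Metrnl, of which some are not reported here. Tln1, Ilk, the genes at 0 and those overlapping others were chosen after their values were seen. Members and lists were chosen with earlier results of these data known. The fit was tested on simulated data, where limma called 14% of 50 genes changed 1.25-fold and 48% of 50 changed 1.5-fold. Most changes of such size were thus missed. Shared exon bases and 31-base words were computed on GENCODE M21.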

Additional observations from a re-analysis of the deposited data

How the results depend on the processing

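The 10 members gave 169 values over the other settings, of which 160 kept their direction and side of the threshold. Itgb7 alone crossed it, in voom on the recovered reads (-0.36, 1 member called). The number of genes called, 0 in limma (1448 at an unadjusted p under 0.05), was 5 without a filter, 6 among protein-coding genes and 61 in voom. Leaving out each library in turn called 0 genes and 0 members. The direction changed for Itgb3 (0.0052) and Itgb5 (0.0015) in TPM and for 6 genes and 3 ratios when a library was left out. With a library left out the ranges were -0.067 to 0.033 for Itgb3, -0.084 to 0.0016 for Itgax, -0.12 to 0.0040 for Itgal, -0.0013 to 0.071 for Itga5, -0.090 to 0.053 for Itgb5 and -0.12 to 0.079 for Fn1. For the ratios they were -0.016 to 0.056 for Itgax to Itgb2, -0.071 to 0.048 for Itgal to Itgb2 and -0.081 to 0.14 for Itga4 to Itgb1. At a minimum of 5 FPKM Itga4 was not tested.

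Same-numbered samples of the groups did not deviate together (correlations of -0.0212, 0.0074 and -0.0454), so they were not treated as pairs. With the replicate number as a block 0 genes and 0 members were called. Itgb7 then had a log2 fold change of -0.34 in limma (unadjusted p = 0.00052, adjusted p = 0.277). Its SE was 0.04 with the block and 0.06 without it, where the unadjusted p in limma was 0.00090. The median log2 fold change of all genes was -0.0056 in FPKM and 0.0115 in TPM, and in TPM 2 members in place of 3 did not overlap. Counting error is largest for Itga4, Itgb3 and Itgal, the members with the fewest reads. The cause of these differences between settings was not tested.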
